A study of Saccharomyces cerevisiae with 4 samples.

Results

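In the budding yeast Saccharomyces cerevisiae the genes for the proteins of the cytosolic ribosome were followed through 4 strains. They were taken as all probe sets whose annotated gene symbols fit the naming pattern RPL, RPS or RPP, a number and, where there are 2 copies, an A or B. The pattern took 165 of the 9275 probe sets that were not controls. They list 135 genes out of 5923 listed for the whole array. Of the 165 probe sets, 106 are listed for 1 gene and 59 for both copies of a duplicated gene. The label held for 164 of them, 96 of the large and 68 of the small subunit. The remaining probe set, RPP1, belongs to a subunit of the tRNA-processing enzyme RNase P and shares only the form of the name. It is kept in all counts, since the rule takes it.

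The ribosome joins amino acids into proteins, and in growing yeast its proteins are made from some of the most abundant messenger RNAs. Most of these proteins are encoded by a pair of genes, or paralogues, left by an ancient genome duplication, and many of the genes carry an intron. Their transcription is driven by RAP1, FHL1, IFH1 and SFP1 and falls together when nutrients run short or cells are stressed.

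The wild type was W303-1A, a haploid laboratory strain of mating type a. The mutants lacked UBP10 (ubp10 null), SIR4 (sir4 null) or both genes (double null). UBP10 encodes a protease that takes ubiquitin off histone H2B. SIR4 belongs to the complex that keeps telomeres and the silent copies of the mating-type genes off. Cells in exponential growth gave total RNA for Affymetrix Yeast Genome S98 arrays, 1 per strain, so none of the values has a replicate or an error of its own, and no test of a difference was possible. The number of arrays limits the precision. The sources used here do not give how the null alleles were built. Whether the strains differ in anything else cannot be told apart from the deletions.

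The deposited values are linear intensities, which reached below 0 for 7.25% to 9.23% of the probe sets on an array. Values under a floor of 6.67 units, 3 SDs of the noise, were raised to the floor. The array labelled sir4 null is here called the sir4-labelled array. UBP10 read 247.9 units in the wild type and 269.2 there, and lay under the floor in the ubp10 null (5.7) and the double null (4.0). SIR4 was dim on every array, with 10.8 units (wild type), 4.9 (ubp10 null), 20.7 (sir4-labelled array) and 15.5 (double null). It was thus no lower on the arrays labelled as lacking it. MFA2, a mating pheromone gene of a cells that is known to be switched off when the silent mating-type genes are expressed, read 1117.4, 1195.7, 761.0 and 14.8 units in the same order, and MFA1 and STE2 were likewise lowest in the double null. On this measure the double null went with its label, and the sir4-labelled array did not. What is said below of that array therefore describes the array and not the deletion. The actin gene ACT1 read 2265.2 units at its 3′ end and 1464.1 at its 5′ end in the wild type, against 1399.6 and 16.1 on the sir4-labelled array. The 5′ probe set was low on that array alone. So was the middle ACT1 probe set, at 1682.2 units in the wild type and 176.2 there. SPT15, a further control gene, read 184.3 units at its 5′ end in the wild type and 29.2 there. Its middle read 462.5 and 342.6 units, and its 3′ end 388.6 and 545.7.

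Ribosomal protein probe sets were among the brightest on every array, and dimmer on the sir4-labelled array and in the double null. In the wild type 140 of the 165 probe sets read 1000 units or more, out of 329 such probe sets on the whole array. The probe sets ran from 14.3 to 4938.1 units in the wild type, with a median of 1855.2. In the ubp10 null they ran from 5.5 to 5824.7 units, with a median of 1928.0. On the sir4-labelled array the range was 4.9 to 3219.6 units and the median 1123.3, and in the double null 12.1 to 2963.8 units and 1070.5. The wild type and the ubp10 null were thus alike at the middle of the group, and the other 2 arrays lay below both. Of the 165 probe sets 163 were above the floor on all 4 arrays, so a filter on low values hardly touched them.

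**Figure D1:**
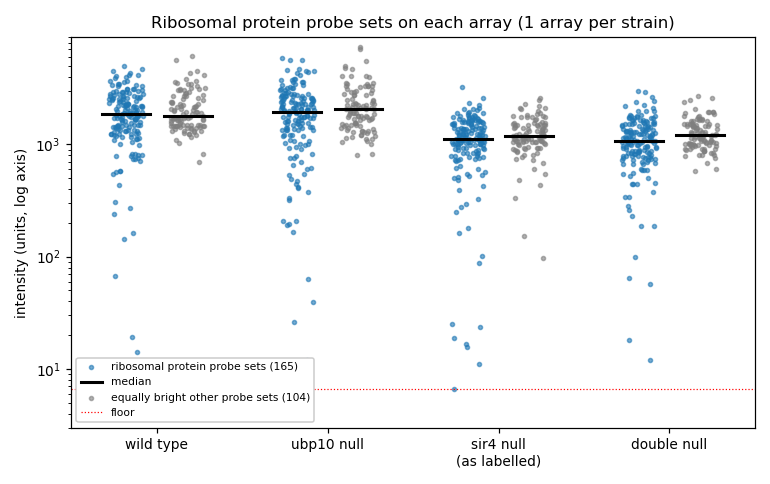
Intensity of the 165 ribosomal protein probe sets (blue) and of 104 other probe sets at least as bright as their lower quartile (gray) on each of the 4 arrays, on a log axis in intensity units. Each point is a probe set, black bars are medians and the dotted line is the floor of 6.67 units. Both sets have lower medians on the sir4-labelled array and in the double null.

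The share of the summed positive intensity that came from the ribosomal protein probe sets was 24.1% (wild type), 23.9% (ubp10 null), 16.4% (sir4-labelled array) and 16.0% (double null). The mean without the outer 2% of values at each end was 100 units on every array, and the upper end of the values, as the 98th percentile, stood at 1480 units (wild type), 1559 (ubp10 null), 1029 (sir4-labelled array) and 990 (double null). It was therefore lower on the same arrays on which the ribosomal protein probe sets were dimmer. The median of the ribosomal protein probe sets lay above this percentile on every array, so these probe sets help to set it. The percentile is thus not a separate measure, and its part in the result was not tested.

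Each mutant array was set against the wild type. A log2 ratio was taken either as deposited or centred, that is minus the median log2 ratio of all probe sets above the floor on both arrays. That median was -0.02 for the ubp10 null, 0.47 for the sir4-labelled array and 0.48 for the double null. A probe set was called higher or lower at a ratio of at least 2, with the brighter value at 13.3 units or more. A call describes a size and is not a test. Fold values are of the intensities as deposited.

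With UBP10 removed and SIR4 present, the ribosomal protein genes as a group read at the level of the wild type. The median centred log2 ratio was -0.01, with quartiles of -0.24 and 0.20, against 0.02 over all 9275 probe sets. Of the 165 probe sets 9 were called lower (6.17% of all probe sets were), 1 was called higher (10% of all were) and 155 were not called. As deposited the counts were 10 lower and 1 higher, against 6.44% and 9.84% of all probe sets. A share of 9 in 165 is close to that of all probe sets.

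On the sir4-labelled array nearly every ribosomal protein probe set read less than in the wild type. As deposited 156 of the 165 ratios were below 0 on the log2 scale, and the median was -0.72, a 1.64-fold lower intensity, with quartiles of -0.89 and -0.54. The centred median was -1.18, against -0.37 over all probe sets (0.09 as deposited). The value over all includes probe sets at the floor on both arrays, whose log2 ratio of 0 becomes -0.47 once centred. On the centred scale 124 probe sets were called lower (12.0% of all were) and 0 higher (6.35%), while as deposited 26 were lower (6.75%) and 0 higher (16.8%). The group lay close to the 2-fold threshold, with 24 probe sets within 0.1 log2 units inside it and 11 within 0.1 outside it, so the count followed the scale.

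In the double null the group lay at a similar level. As deposited 160 of 165 ratios to the wild type were below 0, with a median of -0.80, a 1.75-fold lower intensity. The centred median was -1.28, against -0.28 over all probe sets (0.19 as deposited), again with those at the floor included. On the centred scale 139 probe sets were lower (9.55% of all) and 0 higher (4.53%), and as deposited 32 were lower (5.69%) and 0 higher (14.6%). The 3 comparisons share the wild-type array, and the counts of the mutants are therefore not independent of each other.

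Other messages of the same brightness were lower too. There were 104 probe sets outside the group whose mean over the 4 arrays was at or above 1068.1 units, the lower quartile of the ribosomal protein probe sets. They include genes of glycolytic enzymes, elongation factors, histones and heat shock proteins, and ASC1, a small subunit protein outside the naming pattern. Their median log2 ratio as deposited was -0.70 on the sir4-labelled array and -0.67 in the double null. The 123 ribosomal protein probe sets above that quartile had -0.77 and -0.83, and in the ubp10 null 0.03 against 0.07. On the centred scale 85.4% of these 123 and 65.4% of the other bright probe sets were called lower on the sir4-labelled array, and 90.2% and 68.3% in the double null. As deposited it was 15.4% and 23.1% on the sir4-labelled array, and 20.3% and 16.3% in the double null. In the ubp10 null 0.813% of the 123 and 0% of the others were called lower on either scale. The order of the shares thus followed the scale on the sir4-labelled array, and the medians differed by less than those of either set from all probe sets. A lower level particular to ribosomal protein genes was therefore not shown.

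Within the group the ratio followed brightness. As deposited, the 42 dimmest probe sets, with means over the 4 arrays up to 1068.1 units, had a median log2 ratio of -0.51 on the sir4-labelled array and -0.66 in the double null. The 41 brightest had -0.91 on both. The mean includes the arrays compared. In the ubp10 null the order ran the other way, with -0.48 for the 42 dimmest and 0.10 for the 41 brightest.

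**Figure D2:**
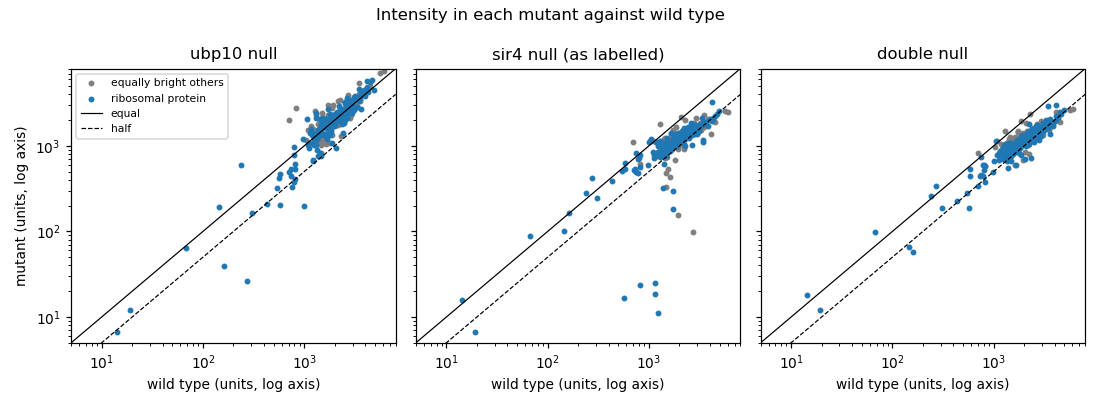
Intensity of each ribosomal protein probe set (blue) and of the 104 other bright probe sets (gray) in each mutant against the wild type, on log axes in intensity units, with values under the floor drawn at the floor. The solid line marks equal values and the dashed line a 2-fold lower value. In the ubp10 null the cloud lies on the solid line. On the other 2 arrays most of both sets lie between the lines at the bright end, with some points below the dashed line.

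To see which members departed from the rest, ratios were also taken relative to the 104 other bright probe sets, a scale chosen after the data were seen. On it the group median was -0.02 on the sir4-labelled array and -0.14 in the double null. On the sir4-labelled array 8 probe sets were lower (3.32% of all) and 2 higher (40.0% of all), and in the double null 1 was lower (2.4%) and 2 higher (40.9%). The 2 higher on the sir4-labelled array were RPP1 and an RPS9 probe set, and those in the double null RPP1 and a dim RPS10B probe set. RPP1, the RNase P subunit, read 67.3, 63.2, 87.6 and 99.3 units on the 4 arrays. On this scale 0 members were lower on both arrays. With only 1 lower in the double null hardly any overlap was possible, and the share over all probe sets is not given here.

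The 9 probe sets called lower in the ubp10 null, a share near that of all probe sets, are described next. The lowest was a probe set listed for RPS9A and RPS9B, which encode a small subunit protein that acts in decoding. That probe set, 7854_i_at, read 272.0 units (wild type), 26.1 (ubp10 null), 422.3 (sir4-labelled array) and 341.2 (double null). It was 10.4-fold lower in the ubp10 null as deposited, and only that array was low. No other RPS9 probe set was called. The RPS9B probe set 7191_f_at read 1855.2 and 1821.7 units in wild type and ubp10 null cells, 7190_i_at read 743.0 and 444.0, and the RPS9A probe set 811.5 and 532.2.

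RPS22B read less than the wild type in all 3 of its probe sets in the ubp10 null. It encodes a small subunit protein, and its precursor RNA is known as a target of the nuclease RNT1. Probe set 9947_i_at read 998.4 units (wild type), 196.9 (ubp10 null), 1096.7 (sir4-labelled array) and 670.1 (double null), which made it 5.07-fold lower in the ubp10 null. Probe set 9946_at read 431.0, 207.2, 390.9 and 228.4 units in the same order, 2.08-fold lower in the ubp10 null and 1.89-fold lower in the double null. Probe set 9948_f_at read 1353.4, 763.8, 933.6 and 671.3 units and was not called in the ubp10 null, where it was 1.77-fold lower. In the probe set of its paralogue RPS22A the ubp10 null was level, with 4092.2 units in the wild type and 4438.8 in the ubp10 null.

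The other calls fell in families whose members share sequence. A probe set of RPS16A and RPS16B, 9497_i_at, read 161.3 units (wild type), 39.3 (ubp10 null), 163.0 (sir4-labelled array) and 57.6 (double null). It was thus low in both strains that lack UBP10, 4.10-fold in the ubp10 null and 2.80-fold in the double null as deposited, while the other 3 RPS16 probe sets were within 1.08-fold of the wild type in the ubp10 null. For RPL14A and RPL14B, probe set 4515_i_at read 580.2, 205.8, 533.7 and 539.1 units across the arrays in the same order, so only the ubp10 null was low, by 2.82-fold. Of the other RPL14 probe sets, 4516_f_at of RPL14B was 1.78-fold and 10556_i_at 1.38-fold lower in the ubp10 null, neither of them called. RPL14A 10557_f_at and the shared 10558_s_at were within 1.09-fold there. For RPL8A and RPL8B, probe set 4575_i_at read 2042.3, 949.3, 1228.1 and 1235.2 units and was 2.15-fold lower in the ubp10 null, where the other 2 RPL8 probe sets were within 1.12-fold. The last of the 9 was the dim RPS10B probe set 9413_f_at, at 14.3 units in the wild type and under the floor in the ubp10 null, at least 2.14-fold lower.

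Of the 9 lower probe sets 6 were listed for both paralogues and all 9 belonged to duplicated genes, as 146 of the 165 did. Their names ended in _i_at in 7 cases, a suffix given by the array's maker to probe sets with a reduced number of probes, against 40 of the 165 members. In 8 cases they were among the 42 dimmest of the group. The part of the probe set design and of brightness in these calls was not tested. Grouping by suffix was chosen after the values were seen.

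The only member called higher in the ubp10 null was RPL15B, which encodes a large subunit protein. It read 240.1 units (wild type), 599.8 (ubp10 null), 278.5 (sir4-labelled array) and 258.0 (double null). The ubp10 null thus stood alone, 2.50-fold above the wild type. The probe set of its paralogue RPL15A read 1777.7, 2335.6, 1283.0 and 830.6 units, a 1.31-fold higher value in the ubp10 null.

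**Figure D3:**
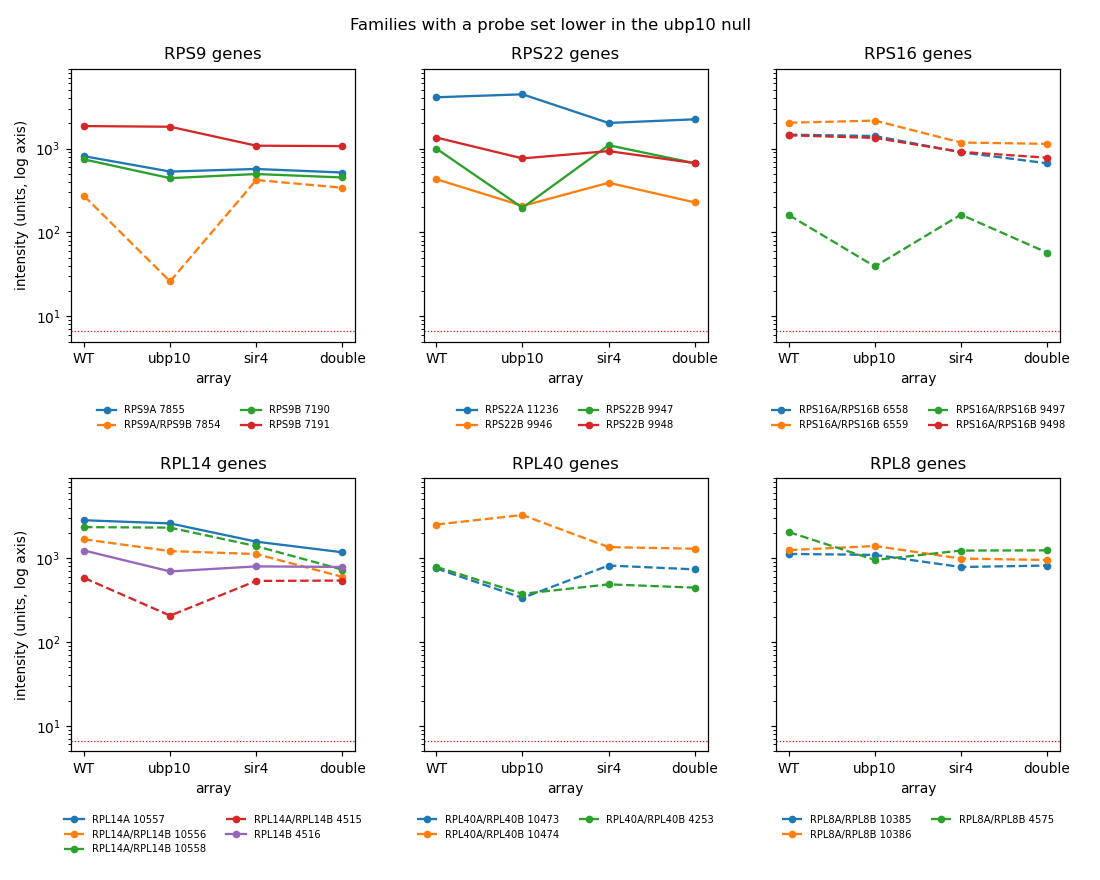
Intensity of every probe set of the RPS9, RPS22, RPS16, RPL14, RPL40 and RPL8 genes on the 4 arrays (x axis: wild type, ubp10 null, sir4-labelled array, double null), on a log axis in intensity units. Solid lines are probe sets listed for 1 gene, dashed lines those listed for both paralogues, numbers are probe set names and the dotted line is the floor. In each family 1 or 2 probe sets are called lower in the ubp10 null and the others are not.

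Ubiquitin is made in yeast from UBI4, a stress-induced gene for a chain of ubiquitin units, and from fusions to the ribosomal proteins of RPS31, RPL40A and RPL40B. RPS31, of the small subunit, read 2972.7 units (wild type), 2823.1 (ubp10 null), 1703.4 (sir4-labelled array) and 1433.2 (double null). It was level in the ubp10 null and 2.07-fold lower in the double null as deposited. The 3 probe sets of RPL40A and RPL40B disagreed in the ubp10 null. Probe set 10474_s_at went from 2512.6 to 3260.1 units, while 10473_i_at went from 751.8 to 334.8 and 4253_i_at from 785.1 to 374.3, 2.25-fold and 2.10-fold lower. UBI4 read 341.6, 1060.9, 303.8 and 271.5 units in the same order. It was 3.11-fold higher in the ubp10 null alone.

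The stalk of the large subunit, which recruits elongation factors, was covered by 6 probe sets for RPP0, RPP1A, RPP1B, RPP2A and RPP2B. None was called in the ubp10 null, where 6.44% of all probe sets were lower and 9.84% higher as deposited. RPP0, the base of the stalk, read 3086.5 units (wild type), 3712.2 (ubp10 null), 1643.3 (sir4-labelled array) and 1701.1 (double null). RPP2A read 2673.1, 2602.7, 1018.6 and 1511.7 units and was the stalk gene furthest below the wild type on the sir4-labelled array, 2.62-fold as deposited. The 6 probe sets had median log2 ratios as deposited of -0.92 on that array and -0.91 in the double null, and 2 of 6 were called lower on each (6.75% and 5.69% of all). Centred, it was 6 of 6 on each (12.0% and 9.55% of all), as for most of the group.

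RPL5 and RPL11, which bind 5S ribosomal RNA and enter the large subunit with it, were covered by 4 probe sets. RPL5 read 2694.7, 2742.5, 1595.8 and 1651.3 units on the 4 arrays. As deposited 0 of the 4 probe sets were called in any comparison with the wild type, and their medians were -0.09, -0.70 and -0.72. Of all probe sets 6.44%, 6.75% and 5.69% were lower and 9.84%, 16.8% and 14.6% higher, in the same order. With 4 probe sets, a count of 0 does not stand apart from these shares. Centred, 3 of the 4 were lower on the sir4-labelled array (12.0% of all) and 4 of 4 in the double null (9.55%).

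Proteins around the exit of the peptide tunnel (RPL4, RPL17, RPL19, RPL25, RPL26, RPL31, RPL35 and RPL39) had 19 probe sets. In the ubp10 null 0 of them were called (6.44% of all lower and 9.84% higher as deposited), with a median of 0.05 as deposited. On the sir4-labelled array 2 were lower as deposited (6.75% of all) and 15 centred (12.0%), and in the double null 4 (5.69%) and 17 (9.55%). The lowest was the RPL17A probe set 10738_i_at, with 3449.3 units (wild type), 3344.3 (ubp10 null), 1098.1 (sir4-labelled array) and 2929.9 (double null). It was 3.14-fold lower on the sir4-labelled array, whereas the other RPL17A probe set was 1.65-fold lower there.

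Some probe sets nearly lost their signal on the sir4-labelled array while others of the same gene did not. RPS0A and RPS0B encode a small subunit protein needed to mature the 18S ribosomal RNA. The RPS0A probe set 4779_f_at read 1238.0 units (wild type), 1036.2 (ubp10 null), 11.0 (sir4-labelled array) and 842.3 (double null). The RPS0B probe set 10300_f_at read 1156.4, 1564.3, 18.7 and 871.2 units. These were 112.5-fold and 61.8-fold lower than in the wild type on the sir4-labelled array alone. A further RPS0A probe set, 4780_at, read 1580.5 and 885.3 units on the same 2 arrays, another RPS0B probe set 3591.9 and 1825.1, and the probe set shared by both genes 3142.3 and 1547.4. With RPS2 and RPS21, whose proteins join the small subunit beside RPS0, the RPS0 genes had 9 probe sets. As deposited 0 of the 9 were called in the ubp10 null (6.44% of all lower and 9.84% higher). On the sir4-labelled array 5 were lower (6.75% of all) and in the double null 1 was (5.69%). Centred, 8 of the 9 were lower on each (12.0% and 9.55% of all), so the contrast between these arrays follows the scale.

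RPL7A and RPL7B, which encode a large subunit protein, showed the same split. The RPL7A probe set 5076_f_at read 1139.9 units (wild type), 1410.3 (ubp10 null), 25.2 (sir4-labelled array) and 675.8 (double null), and 5075_i_at read 1741.9, 1523.8, 181.7 and 1121.8. The RPL7B probe set 7960_i_at read 812.8, 611.5, 23.7 and 378.5 units, and 7961_f_at read 568.8, 417.1, 16.6 and 188.6. These 4 were 9.59-fold to 45.2-fold lower on the sir4-labelled array. The probe set shared by the 2 genes was only 1.81-fold lower, with 1999.0 and 1105.1 units. Another RPL7A probe set, 7473_at, was dim throughout, at 19.2 units in the wild type.

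RPS7B and RPS14B completed the 8 that were lower than the other bright probe sets on that array. One RPS7B probe set, 8936_at, read 1713.3, 2721.6, 293.7 and 1180.4 units, 5.83-fold lower than the wild type on the sir4-labelled array, and the other RPS7B probe set read 1273.0 and 743.3 units in the wild type and there. RPS14B, whose splicing is held back by its own protein product, read 1377.5, 1552.6, 325.2 and 557.4 units. It was 4.24-fold lower there and 2.47-fold lower in the double null, against 1.90-fold and 1.71-fold for its paralogue RPS14A. RPS28B, which encodes another small subunit protein, had a probe set 2.94-fold lower on that array, with 3449.5, 4594.0, 1174.0 and 1779.9 units, but it was within 2-fold of the other bright probe sets. ASC1 split likewise, with 3097.3 and 1735.9 units for 1 probe set and 2702.3 and 97.3 for the other in the wild type and on the sir4-labelled array. The sources used here do not give where along the transcripts these probe sets lie. The low 5′ signal of ACT1 and SPT15 occurred on the same array, and its part in these values was not tested.

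**Figure D4:**
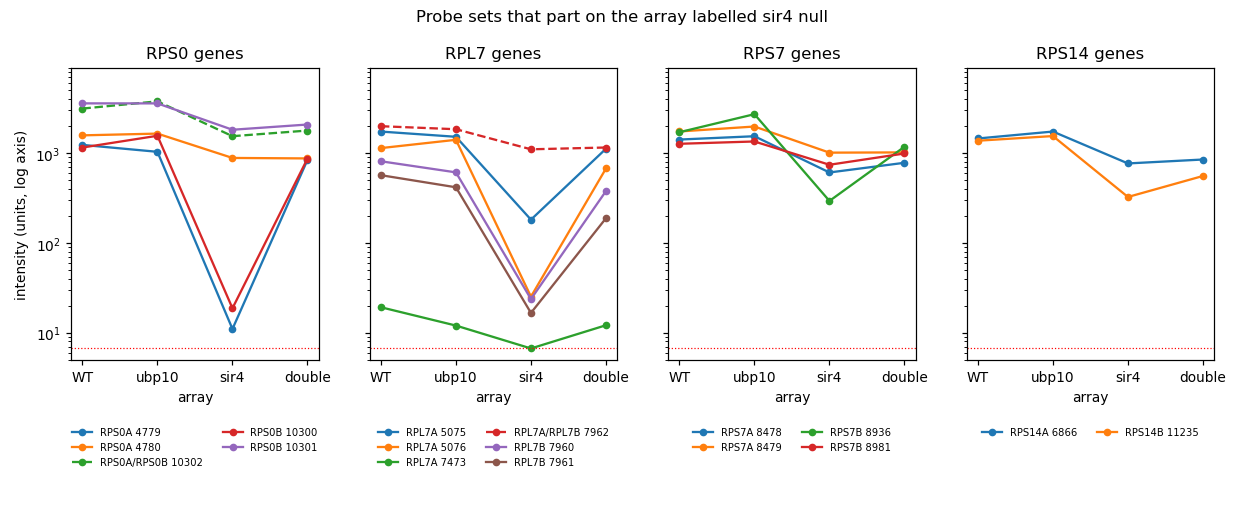
Intensity of every probe set of the RPS0, RPL7, RPS7 and RPS14 genes on the 4 arrays (x axis: wild type, ubp10 null, sir4-labelled array, double null), on a log axis in intensity units. Solid lines are probe sets listed for 1 gene, dashed lines those listed for both paralogues, numbers are probe set names and the dotted line is the floor. Of the 5 RPS0 probe sets 2 drop to under 20 units on the sir4-labelled array and the other 3 stay above 800.

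In the double null the lowest members were probe sets of RPL14, RPL7B, RPL15, RPS16 and RPL22A. RPL7B 7961_f_at, with the values above, was 3.02-fold lower there, and RPL7B 7960_i_at 2.15-fold. The RPL14 probe set 10558_s_at, shared by both copies, read 2338.3 units (wild type), 2305.4 (ubp10 null), 1387.5 (sir4-labelled array) and 727.8 (double null), 3.21-fold below the wild type. RPL14 probe set 10556_i_at was 2.80-fold lower there and RPL14A 2.41-fold. RPL14B, by contrast, was 1.57-fold lower, and the shared RPL14 probe set 4515_i_at 1.08-fold. For RPL15 the shared probe set 10326_g_at read 2030.3, 2360.3, 1204.8 and 703.4 units, 2.89-fold lower in the double null, and RPL15A was 2.14-fold lower. Except for RPL14B and 4515_i_at, these RPL14 and RPL15 probe sets read least in the double null. The same probe sets were within 1.38-fold of the wild type in the ubp10 null. The RPL7B probe sets read least on the sir4-labelled array.

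RPL22A encodes a nonessential large subunit protein. It read 3631.1, 2713.5, 1904.5 and 1367.0 units, 2.66-fold below the wild type in the double null, and its paralogue RPL22B read 542.0, 319.1, 512.2 and 279.9 units, 1.94-fold lower. Both RPL22 genes read least in the double null. RPL38 was 2.36-fold and RPL21A 2.25-fold lower there as deposited. Relative to the other bright probe sets, only the RPL14 probe set 10558_s_at remained past 2-fold, and RPL22A was at -0.74 on the log2 scale.

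On the centred scale 2 probe sets were lower in all 3 mutants, RPL40 4253_i_at and RPL8 4575_i_at, against 0.399% of all probe sets, and 0 were higher in all 3, against 0.582%. As deposited 0 were lower in all 3, against 0.237% of all.

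The double null was also set against each of the other 2 mutant arrays. Against the ubp10 null the median log2 ratio of the group was -0.81 as deposited and -1.18 centred, with 112 probe sets lower (15.3% of all) and 4 higher (12.6%) on the centred scale and 48 (10.7%) and 5 (20.9%) as deposited. The 4 higher were RPS9 7854_i_at, RPS22B 9947_i_at, RPS10B 9413_f_at and RPL14 4515_i_at, all of them low in the ubp10 null, and as deposited RPL40 10473_i_at was the fifth. RPS26B, whose protein lies at the exit of the messenger RNA channel, read 1320.4 units (wild type), 2442.7 (ubp10 null), 1024.8 (sir4-labelled array) and 825.6 (double null). It was highest in the ubp10 null and 2.96-fold lower in the double null than there.

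Against the sir4-labelled array the double null was level, with a group median of -0.08 as deposited and -0.02 centred. On the centred scale 8 probe sets were higher (8.13% of all) and 1 was lower (3.98%), with the same counts as deposited (7.53% and 4.69% of all). The 8 were 2 of RPS0, 4 of RPL7, RPS7B 8936_at and RPL17A 10738_i_at, the probe sets with low values on the sir4-labelled array. They lay 2.67-fold to 76.6-fold higher in the double null as deposited. The 1 lower was RPS16 9497_i_at, 2.83-fold.

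Paralogues were compared by their ratios to the wild type, since levels of different probe sets cannot be set against each other. In 31 pairs each copy had a probe set of its own. The A and B copies differed by a median of 0.28 log2 units in the ubp10 null, 0.38 on the sir4-labelled array and 0.26 in the double null, and by more than 1 in 1, 2 and 1 pairs. In the ubp10 null that pair was RPS22, with a centred log2 ratio of 0.13 for RPS22A and -1.39 for RPS22B. RPL15 and RPS26 followed, with RPL15A at 0.41 and RPL15B at 1.34, and RPS26A at -0.01 and RPS26B at 0.90.

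On the sir4-labelled array the pairs past 1 were RPL7 (-3.89 for RPL7A and -5.57 for RPL7B) and RPS14 (-1.39 for RPS14A and -2.55 for RPS14B). The RPL7A value includes its dim probe set, and without probe sets of under 26.7 units RPS14 alone remained. In the double null it was RPL15, with -1.57 for RPL15A and -0.37 for RPL15B. Where a cell makes near-identical copies, probe sets listed for 1 of them may still take signal from the other, so these differences are open to cross-hybridisation, whose part was not tested.

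**Figure D5:**
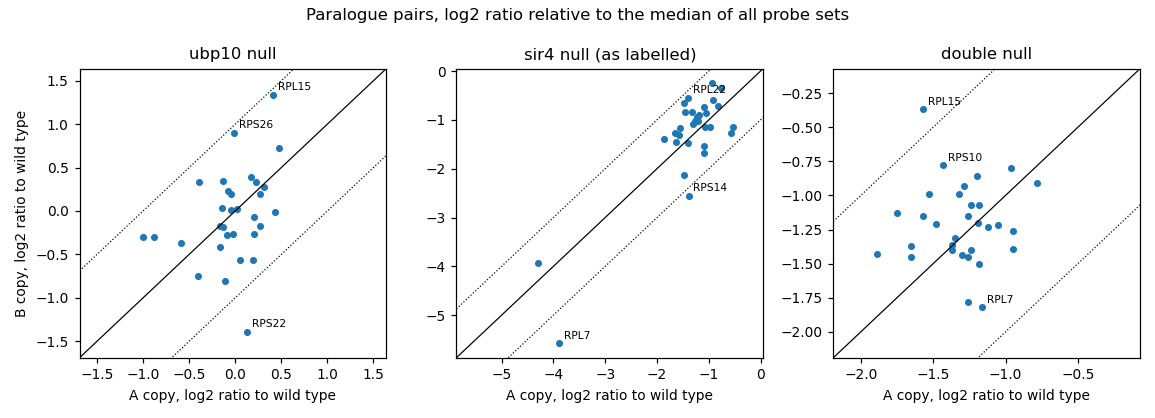
Centred log2 ratio to the wild type of the B copy against the A copy for the 31 pairs in which each copy has a probe set of its own, in the ubp10 null, on the sir4-labelled array and in the double null. Each point is a pair, the solid line marks equal ratios and dotted lines a difference of 1 log2 unit; the axes differ between panels. The pairs past a dotted line are RPS22 in the ubp10 null, RPL7 and RPS14 on the sir4-labelled array and RPL15 in the double null.

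Probe sets of the same ribosomal protein gene mostly moved together. Of 21 genes with several probe sets of their own, 2 had ratios more than 1 log2 unit apart in the ubp10 null (RPS22B and RPS10B), 4 on the sir4-labelled array (RPS0A, RPS0B, RPL7A and RPS7B) and 1 in the double null (RPS10B). Among 294 other genes with several probe sets it was 140, 177 and 98. Limited to probe sets with a mean of at least 26.7 units, the counts were 1, 4 and 0 of 20 ribosomal protein genes and 58, 103 and 32 of 144 others. The other genes were not matched for brightness. In the wild type the median was 1855.2 units for the ribosomal protein probe sets and 24.2 over all probe sets. The part of brightness in this contrast was not tested.

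Probe sets listed for both paralogues did not always agree either. Among the 11 pairs with several of them, 5 spanned more than 1 log2 unit in the ubp10 null, 1 on the sir4-labelled array and 1 in the double null. The widest were RPS16 in the ubp10 null, 2.12 log2 units apart, and RPL14 in the double null, 1.58 apart.

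The medians of both subunits were close on every array. The large subunit had median log2 ratios as deposited of -0.04 in the ubp10 null, -0.72 on the sir4-labelled array and -0.81 in the double null, and the small subunit 0.01, -0.72 and -0.80. The 18 probe sets of genes with no second copy had medians of 0.01, -0.79 and -0.85. The 146 of duplicated genes had -0.03, -0.70 and -0.79. In the ubp10 null 0 of the 18 were called, against 6.44% of all probe sets lower and 9.84% higher as deposited. Taken as the mean of its own probe sets, the gene that varied least over the 4 arrays as deposited was RPS1B, with a log2 range of 0.43, followed by RPL31B and RPL9B (0.51 each), RPS10B (0.59) and RPS9A (0.65). RPS10B is flat only as a mean, since its probe sets had ranges of 1.44 and 0.95 and lay on opposite sides of the wild type on the sir4-labelled array and in the double null.

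The genes of the naming pattern lie on 15 chromosomes in the gene table, and 10 pairs of them are direct neighbours there. In 6 of these pairs both genes had a probe set of their own, and 2 are given here, chosen after their values were seen. RPL24A and RPL30 lie side by side on chromosome VII and had centred log2 ratios of -0.05 and -0.17 in the ubp10 null, -1.10 and -1.09 on the sir4-labelled array and -1.26 and -1.35 in the double null. RPS14B and RPS22A, neighbours on chromosome X, were at 0.19 and 0.13 in the ubp10 null but at -2.55 and -1.48 on the sir4-labelled array.

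Of 12 regulators of ribosomal protein genes measured, 1 was lower and 1 higher in the ubp10 null on the centred scale (6.17% and 10% of all probe sets). On the sir4-labelled array 1 was lower and 0 higher (12.0% and 6.35% of all). In the double null 0 were called (9.55% of all lower and 4.53% higher), and as deposited 2 were higher (14.6% of all). With 12 genes, these counts do not stand apart from the shares. RAP1, the main activator, which also binds silencing sites, read 37.0 units (wild type), 12.4 (ubp10 null), 72.3 (sir4-labelled array) and 77.8 (double null). It was 2.98-fold lower in the ubp10 null. STB3, a repressor of genes for ribosome production, went from 25.3 units in the wild type to 63.7 in the ubp10 null, 2.52-fold higher. FHL1, a forkhead factor at these promoters, read 26.4, 17.4, 9.4 and 30.0 units and was called lower on the sir4-labelled array. RAP1, STB3 and FHL1 were dim on every array, where noise weighs more than at high intensity.

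Chaperones and assembly partners dedicated to ribosomal proteins were not lower at the median on the sir4-labelled array or in the double null. Of 8 measured (RRB1, SQT1, SYO1, ACL4, YAR1, TSR2, TSR4 and BCP1), 0 were called in any mutant on the centred scale. Over all probe sets 6.17% (ubp10 null), 12.0% (sir4-labelled array) and 9.55% (double null) were lower on it. Higher on it were 10%, 6.35% and 4.53%. As deposited 0 were called in the ubp10 null (6.44% of all lower and 9.84% higher). As deposited 1 was higher on the sir4-labelled array (16.8% of all) and 2 in the double null (14.6%). With 8 genes, these counts do not stand apart from the shares. Their median log2 ratios as deposited were -0.24, 0.48 and 0.71. Being dimmer than the ribosomal protein probe sets, at 40.3 to 378.1 units in the wild type, they cannot be compared with them at equal brightness.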

How the data were processed

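Per the labels, the authors hybridised total RNA to Affymetrix Yeast Genome S98 arrays and analysed them with MAS 4.0. The deposited values are 1 intensity per probe set on a linear scale. Each column's median was 24.2, 26.3, 34.5 and 38.2 units (wild type, ubp10 null, sir4 null, double null). The trimmed mean between the 2nd and 98th percentile was 100 units on every array; the target of any scaling, and how background was set, are not given in the sources used here. Gene names came from GEO's platform annotation and were brought to RefSeq R64 symbols. Ratios, the floor and calls were computed as described with the results, after a test of the calling rule on simulated data.

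The members and lists were chosen with earlier results of these data known. The text names members from among the lowest 10 and highest 5 called members per comparison, the 5 paralogue pairs and 5 genes with the widest probe set differences, the 5 flattest genes and the listed role groups; RPL5, regulators and chaperones belong to those groups. Promoter motifs and protein length were not analysed here. Alternatives covered scaling, floor, fold, probe set choice and unit. Computation used Python 3.11.15, numpy 2.4.6, pandas 2.3.3, matplotlib 3.10.9 and R 4.3.3 with limma 3.58.1.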

Additional observations from a re-analysis of the deposited data

Results flagged for a closer look

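Ribosomal RNA control probe sets, which belong to none of the comparisons, gave signal in the ubp10 null above that of the wild type. A control for 18S ribosomal RNA read 48.9 units in the ubp10 null against -0.7 in the wild type, 0.3 on the sir4-labelled array and -0.2 in the double null. A second 18S control read 39.3 units against 3.0, -0.4 and -0.5. For 25S ribosomal RNA a control read 27.6 units in the ubp10 null against 3.7, -5.4 and 0.3, and another 75 against 11.6, 11.2 and 8.4. Of the 5 controls for 18S, 3 were above the floor in the ubp10 null and 0 on each other array; for 25S it was 2 of 5 there and 1 of 5 on each other array.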

How the results depend on the processing

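No paired analysis was possible because each strain had 1 array; leaving out a replicate was not possible for the same reason. Below, comparisons are ordered as sir4 null, double null (each against wild type), then double null against ubp10 null. The group medians were -1.18, -1.28 and -1.18 centred, and -0.72, -0.80 and -0.81 as deposited. They were -0.06, -0.11 and -0.05 under quantile normalization (without the sir4 array -0.11 and -0.06 for the last 2), -0.12, -0.18 and -0.19 under cyclic loess, and -0.02, -0.14 and -0.03 relative to the other bright probe sets. Over genes the last median was -1.31. Quantile normalization gives every array the same distribution, and the group held 140 of the 329 wild-type values of 1000 units or more. A group median near 0 in that setting is therefore in part set by the method and does not decide whether the group was lower. Members called lower, 124, 139 and 112 centred, were 26, 32 and 48 as deposited, 9, 7 and 6 under quantile normalization (7 and 6 without the sir4 array), 10, 9 and 8 under cyclic loess, 8, 1 and 0 relative to the other bright probe sets, and 15, 15 and 14 at a ratio of 3. Over all probe sets the shares called lower were 8.99%, 7.32% and 13.3% in the quantile setting and 10.9%, 8.09% and 15.6% with loess, above those of the 165 members, whereas on the centred scale they were below them. The members were 81 and 90 for the first 2 without shared probe sets, and 59, 72 and 64 over genes, with fewer features counted. Members called higher relative to the other bright probe sets were 2, 2 and 13 (40.0% and 40.9% of all for the first 2). Those called higher in the last comparison were 1 at a ratio of 3, 2 without shared probe sets and 0 over genes.

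In the ubp10 null against the wild type the 9 called lower were 5 under quantile normalization, 22 at a ratio of 1.5, 3 at a ratio of 3, 3 without shared probe sets and 1 over genes; the 1 called higher was 5 at a ratio of 1.5 and 0 at 3. In the double null against the sir4 array the 1 called lower was 4 under quantile normalization, 8 at a ratio of 1.5 and 0 at 3, without shared probe sets or over genes, and the 8 called higher were 5 over genes. Pairs of paralogues past 1 log2 unit in the double null were 0 under quantile normalization, with or without the sir4 array, and cyclic loess; on the sir4 array 1 remained with probe sets of at least 26.7 units. Genes with probe sets past 1 were 1 in the ubp10 null with the floor doubled or with such probe sets, and in the double null 2 under both quantile settings and 0 with such probe sets. The relative scale of the other bright probe sets, the brightness limit and the quantile setting without the sir4 array were chosen after seeing the data. Of the members called higher only relative to the other bright probe sets, RPP1 on the sir4 array stood at 1.08 there and at -0.09 centred, -0.14 under quantile normalization and -0.28 under cyclic loess, RPP1 in the double null at 1.23 and at -0.10 under cyclic loess, and RPS10B 9413_f_at in the double null at 1.01, -0.14, -0.24 and -0.11. The cause of these differences was not tested, and with 1 array per strain no replicate spread is available. In this section, a count with no share of all probe sets beside it does not tell whether the members exceed that share.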
